A study of Mus musculus with 8 samples.

Results

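The proteins of the cytosolic ribosome were examined here through their messenger RNAs in the uterus of pseudopregnant mice that had inhaled electronic cigarette aerosol or room air. Members were all genes of the array whose symbol begins with Rpl or Rps followed by a digit, together with Rpsa, Rplp0, Rplp1 and Rplp2, leaving out the Rps6k kinases and pseudogene symbols. This gave 68 genes of 19505, each measured by 1 probe set. They comprised 22 core genes of the small (40S) subunit, 33 core genes of the large (60S) subunit, 8 paralogs that are relatives of a core gene, 4 genes named as copies of one (Rpl32l, Rpl37rt, Rps27rt and Rps23rg1), and Rps19bp1, which meets the symbol rule but is named for a protein that binds RPS19. The class of copies rests on gene names alone, and whether each of them encodes a ribosomal protein was not examined. A further 22 protein-coding symbols of the RefSeq table that meet the rule, among them Rplp2, Rpl10, Rpl13a and Rps27, were not analysed here.

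Uterus was collected from 8 wildtype C57BL/6J females on the morning of day 4.5 after mating to vasectomized males, with the copulatory plug counted as day 0.5, and total RNA of each animal was hybridised to its own array. The exposed group comprised 4 mice that breathed aerosol from a liquid of 24 mg/mL nicotine in a 55:45 mixture of propylene glycol with vegetable glycerin. Each daily session lasted 3 hours, with 2 puffs a minute of about 2 seconds each and the atomizer at 245 °C. Sessions ran 5 days weekly over the 4 weeks that preceded mating, and each day from the plug to collection. Room air alone was given to the 4 sham mice. No flavouring was added to the liquid, no group received aerosol without nicotine, and the mice carried no embryo.

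Cytosolic ribosomes are built in the nucleolus from ribosomal RNA and from proteins that are made in the cytoplasm, imported into the nucleus and fitted onto the RNA in near-equal numbers. The messenger RNAs of these proteins are abundant and long-lived, and nearly all of them begin with a terminal oligopyrimidine (TOP) tract, a cytosine followed by a run of pyrimidines. Through this tract the mTOR pathway and the protein LARP1 set how much of the message is translated and stored, so that ribosome production can change with little change in message level. In the mouse uterus, oestrogen and progesterone drive waves of growth before implantation, and growing cells make many ribosomes.

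The start sites of several members are shown because the TOP tract is the sequence feature by which these messages are known. Each sequence runs from 30 bases before the annotated start to 24 bases from it onward, taken from RefSeq on GRCm38.p6, and capitals mark the pyrimidine run where the start base is C and the run holds at least 5 bases. The first group holds core genes with such a run, and the second holds core genes and paralogs without one at the annotated start.
Rps6 (chr4:86857344-86857397, minus strand): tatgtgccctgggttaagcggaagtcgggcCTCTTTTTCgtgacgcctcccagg
Rpl28 (chr7:4792935-4792988, plus strand): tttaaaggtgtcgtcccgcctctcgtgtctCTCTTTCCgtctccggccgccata
Rps18 (chr17:33955642-33955695, minus strand): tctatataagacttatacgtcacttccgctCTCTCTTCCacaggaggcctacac
Rpl35 (chr2:39005108-39005161, minus strand): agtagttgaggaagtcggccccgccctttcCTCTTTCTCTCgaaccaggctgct
Rpl15 (chr14:18270963-18271016, minus strand): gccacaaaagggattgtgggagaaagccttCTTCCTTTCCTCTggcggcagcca
Rpl41 (chr10:128549145-128549198, minus strand): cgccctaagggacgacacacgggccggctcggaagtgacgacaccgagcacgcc
Rps4x (chrX:102189368-102189421, minus strand): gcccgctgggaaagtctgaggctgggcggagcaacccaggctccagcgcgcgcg
Rpl7l1 (chr17:46782633-46782686, minus strand): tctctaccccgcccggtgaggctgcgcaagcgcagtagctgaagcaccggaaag
Rps27l (chr9:66946056-66946109, plus strand): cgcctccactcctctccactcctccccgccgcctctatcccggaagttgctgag
Rpl36al (chr12:69184044-69184097, minus strand): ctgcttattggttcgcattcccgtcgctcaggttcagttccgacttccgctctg
Rpl22l1 (chr3:28805478-28805531, plus strand): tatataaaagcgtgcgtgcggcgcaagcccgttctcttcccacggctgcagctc

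Of the 55 core genes, 43 had an entry in the promoter table, and 11 of these (25.6%) began with such a run at an annotated start, against 3.01% of all 27025 genes of the table. Among 7 paralogs with an entry, 0 did, and neither did any of 67 mitochondrial ribosomal protein genes. These counts depend on where RefSeq places the start. Within 300 bases (250 before and 50 after the start, both strands), CTCTTTC was found in 34.9% of the core genes and 9.28% of all genes, and this motif can overlap the pyrimidine run itself. CCGGAAG, the core of ETS-type sites, was found in 44.2% against 9.93%, GGGCGG, the GC box, in 58.1% against 38.2%, and TATAAA in 11.6% against 15.7%. CCGGAAG was also found in 37.3% of mitochondrial ribosomal protein genes, 42.6% of nucleolar assembly genes and 42.9% of initiation factor genes. For GGGCGG these shares were 49.3%, 66.0% and 71.4%, so neither motif was particular to the core genes. The core genes that began with a pyrimidine run had a median difference between exposed and sham mice of 0.0748 log2 units (10 of 11 with a higher mean), and those that did not had 0.0752 (26 of 32). Nearly all of these messages are known to begin with a TOP tract. This split therefore follows annotated starts, and cannot compare messages with and without the tract.

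Core ribosomal protein messages were among the brightest on these arrays. Of the 55 core genes, 50 lay above the 95th percentile of all probe sets (9.97 on the log2 scale) and 31 above the 99th (11.27), while the array median was 7.08. The mean log2 value of a core gene over the 8 mice ran from 8.63 to 12.75. Brightness also depends on the probes, so members are not ranked against each other. The within-group SD of a core gene was 0.0994 at the median, against 0.168 over all genes and 0.141 over the 3889 other genes at least as bright as the dimmest core gene. That last set begins at the dimmest core gene and is not matched in brightness, and the part of brightness in this spread was not tested. The SD was larger in exposed than in sham mice for 38 of 55 core genes (69.1%), and for 66.0% of all genes.

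The comparison of exposed with sham mice asks whether inhaled aerosol altered the messages for the ribosome around the time of implantation. No member was called changed. Limma gave the 68 members adjusted p-values from 0.838 to 0.998 over all probe sets, and 0 of 68 reached an unadjusted p under 0.05, where 5.42% of all probe sets did (1203 of 22206, with 2.91% higher and 2.50% lower in exposed mice). With the adjustment, 0% of probe sets passed. The smallest unadjusted p was 0.0966 among the members and 0.144 among the core genes. For 0 members did the 4 exposed values lie on one side of the 4 sham values, which happened at 2.73% of probe sets (1.38% higher and 1.35% lower). The exact permutation test, which cannot give a p below 0.0286 with 4 mice against 4, gave no member a p under 0.0571.

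The differences were small. Among core genes the exposed mean lay between 1.07-fold below (Rpl41) and 1.14-fold above (Rps4x) the sham mean. The 95% interval of the difference stayed within 1.5-fold in either direction for all 55 core genes, and over the 55 genes the outermost bounds were 0.752-fold and 1.38-fold. Larger changes in the array value of a core gene than these bounds are therefore outside its interval. Changes of a few percent are not resolved by these intervals with 4 mice a group. Limma draws the variance of each gene toward a common prior, here an SD of 0.162. For 47 of the 55 core genes their own SD was below that prior, which raises their standard errors. The arrays share a common distribution, and 31 of the 55 core genes lay above its 99th percentile. How far a large or shared change in message would be compressed there was not tested.

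**Figure D1:**
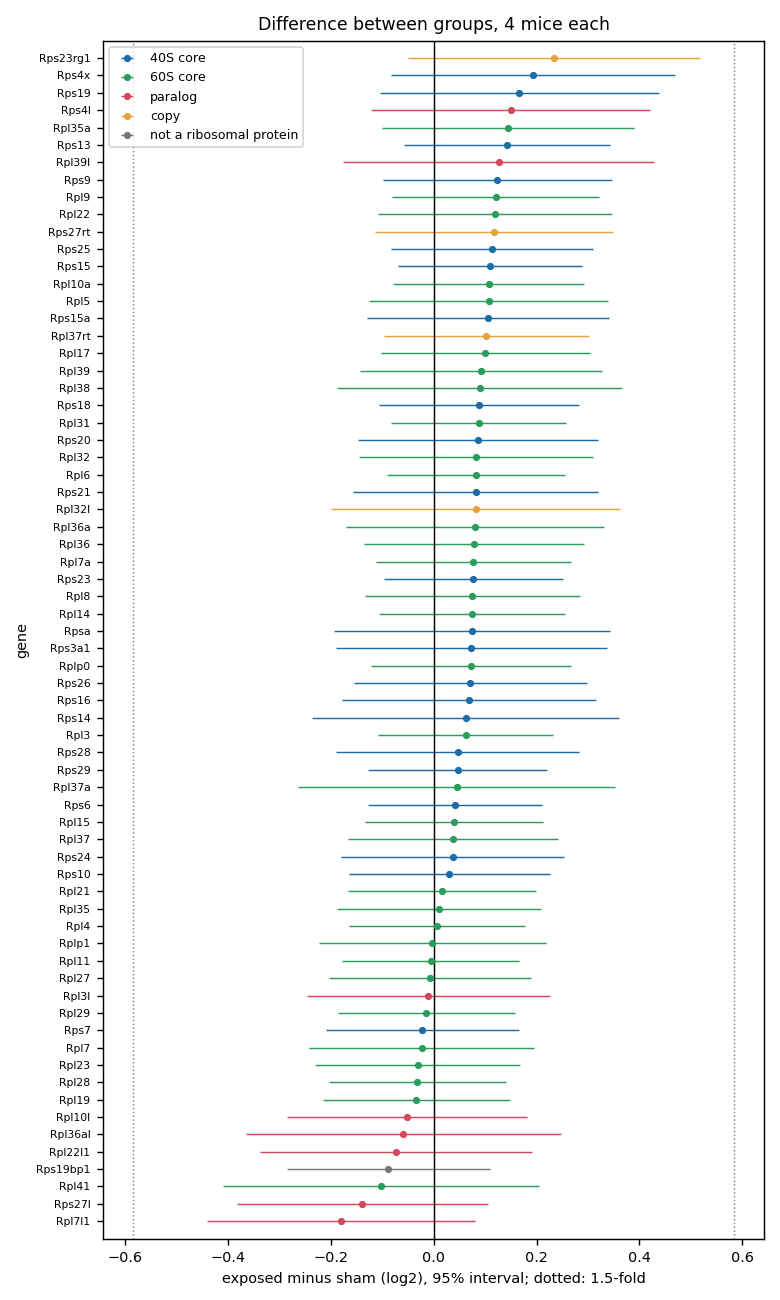
Difference between exposed and sham means (log2) for each of the 68 genes, with its 95% interval from limma, coloured by class, and dotted lines at 1.5-fold. Every interval crosses 0 and lies inside the dotted lines, most core genes sit slightly right of 0, and Rpl7l1 and Rps27l are lowest.

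Although no gene passed, most core genes leaned the same way. The exposed mean was above the sham mean for 45 of 55 core genes (81.8%) and for 51 of all 68 members (75.0%), against 49.8% of all genes, and below it for 17 of the 68 members, against 50.2% of all genes. The median difference was 0.0737 over the core genes, 0.0735 over all members and -0.000542 over all genes. Messages of the ribosome vary together between mice, so these counts are not those of 55 independent genes, and they depend on which mice are included. Without exposed mouse 1, a choice made after the data were seen, 51 of 55 core genes had a higher exposed mean (median 0.117). The median was 0.0408 without sham mouse 4, 0.0458 without exposed mouse 2 and 0.0422 without exposed mouse 3. Without exposed mice 2 and 4, which earlier results of these data had shown to stand apart, it was 32 of 55 (median 0.0201).

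Among core genes of the small subunit, 21 of 22 had an exposed mean above the sham mean (49.8% of all genes), with a median difference of 0.0752. Without exposed mice 2 and 4 it was 15 of 22 (median 0.032). Rps4x, the X-linked gene of eS4, had the largest difference of these 22 genes. Its log2 values were 10.75, 10.97, 10.71 and 10.54 in sham mice 1 to 4, and 10.69, 11.06, 10.88 and 11.11 in exposed mice 1 to 4. Exposed mice 2 and 4 lay above all sham mice and exposed mouse 1 within their range, and the difference was 0.19 ± 0.12 (SE, n = 4 a group, limma adjusted p = 0.841). Rps19, whose human counterpart is mutated in Diamond-Blackfan anaemia, had values of 9.65, 10.02, 9.57 and 9.53 in sham and 9.69, 9.97, 9.92 and 9.86 in exposed mice. The highest of these 8 values was that of sham mouse 2, without which the difference was 0.275 (limma adjusted p = 0.965). Over all mice it was 0.17 ± 0.12 (SE, limma adjusted p = 0.843). Rps13 (9.88 ± 0.10 in sham and 10.02 ± 0.10 in exposed mice, SD) differed by 0.14, and Rps15 by 0.11.

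Rps15 came nearest to a separation of the groups among the core genes of the small subunit. Its values were 12.12, 12.25, 12.15 and 12.09 in sham and 12.27, 12.27, 12.20 and 12.33 in exposed mice, so that only sham mouse 2 overlapped exposed mouse 3 (exact permutation p = 0.0571). Rps6, the subunit protein that S6 kinase phosphorylates downstream of mTOR, was among the steadiest. It stood at 12.22, 12.23, 12.16 and 12.20 in sham and 12.18, 12.26, 12.29 and 12.25 in exposed mice, a difference of 0.04 with an interval from 0.916-fold to 1.16-fold. Rpsa, which also serves as a laminin receptor, was 10.92 ± 0.19 in sham and 10.996 ± 0.17 in exposed mice. Rps7 was the core 40S gene whose exposed mean was below the sham mean, by 0.02 log2 units, and is named after its value was seen.

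**Figure D2:**
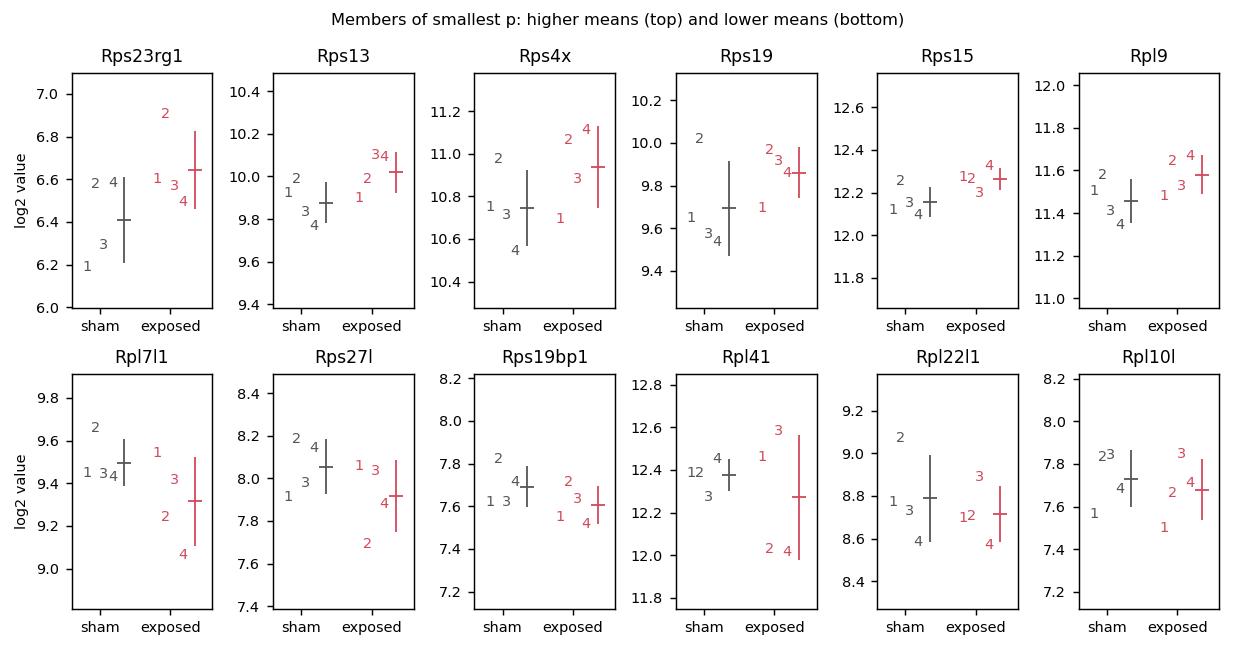
Log2 values of the 6 members of smallest p with a higher exposed mean (top) and the 6 with a lower one (bottom). Digits are mouse numbers, bars are the mean ± SD of 4 mice, and every panel spans the same range. The groups overlap in all 12 panels, and exposed mice 2 and 4 are the lowest for Rpl41 and Rpl7l1.

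Among core genes of the large subunit, 24 of 33 had an exposed mean above the sham mean (49.8% of all genes), with a median difference of 0.0719. Without exposed mice 2 and 4 it was 17 of 33 (median 0.00472). The difference between the subunits was not tested. Rpl9 had the smallest p of these 33 genes. Its values were 11.50, 11.58, 11.41 and 11.34 in sham and 11.48, 11.64, 11.53 and 11.67 in exposed mice, with exposed mice 1 and 3 inside the sham range and mice 2 and 4 above it, and the difference was 0.12 ± 0.09 (SE, limma adjusted p = 0.847). Rpl5 and Rpl11 encode the proteins that, when unassembled, bind MDM2 and release p53. For Rpl5 the sham mean was 11.40 ± 0.08 (SD) with an exposed mean of 11.51 ± 0.18, while Rpl11 stood at 11.69 ± 0.03 and 11.69 ± 0.06. Rpl38, whose reduction alters the translation of Hox messages in the mouse embryo, was 10.68 ± 0.08 and 10.77 ± 0.25, with exposed mouse 1 lowest of all 8 mice (10.42) and exposed mouse 4 highest (11.01).

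The stalk of the large subunit, which recruits the factors of elongation, is formed by Rplp0 with the acidic proteins Rplp1 and Rplp2. Rplp0 was 10.89, 10.88, 10.85 and 10.73 in sham and 10.82, 10.87, 10.90 and 11.05 in exposed mice. Exposed mice 3 and 4 lay above all sham mice, mouse 3 by little, and the difference was 0.07 ± 0.09 (SE). For Rplp1 it was -0.00298 (12.41 ± 0.13 in sham and 12.41 ± 0.11 in exposed mice). Rplp0 is a common reference gene in quantitative PCR, and its interval here ran from 0.918-fold to 1.20-fold.

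Rpl41, which encodes a very short basic peptide, departed from the other core genes in 2 mice. It stood at 12.39, 12.39, 12.27 and 12.45 in sham mice, at 12.46 and 12.58 in exposed mice 1 and 3, and at 12.03 and 12.01 in exposed mice 2 and 4. These last were the lowest of all 8 values, in mice whose other core genes were mostly above the sham mean. The group difference was -0.10 ± 0.14 (SE, limma adjusted p = 0.898), and 0.15 without mice 2 and 4. Rpl37a varied most among the other core genes, and here exposed mouse 1 was lowest (10.59) while exposed mouse 3 was highest (11.25), with 10.82 to 11.02 in sham mice.

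Of the 8 paralogs, 2 had an exposed mean above the sham mean, with a median difference of -0.0554. Without sham mouse 2 the median was -0.00663, and without exposed mice 2 and 4 it was -0.00258, with 4 of 8 higher. Rpl7l1, a relative of Rpl7, had the lowest difference of all members. It stood at 9.45, 9.66, 9.44 and 9.43 in sham and 9.54, 9.24, 9.42 and 9.06 in exposed mice, the lowest values again in exposed mice 2 and 4 (difference -0.18 ± 0.12, limma adjusted p = 0.841). Without exposed mouse 1 the difference was -0.26 (limma adjusted p = 0.436). Rps27l, a relative of Rps27 that p53 induces, was 8.05 ± 0.13 in sham and 7.92 ± 0.17 in exposed mice, with exposed mouse 2 lowest at 7.69. Rpl36al, which encodes a near-identical form of Rpl36a, was 8.11 and 8.19 in exposed mice 2 and 4, 8.40 and 8.70 in exposed mice 1 and 3, and 8.29 to 8.60 in sham mice. Rpl22l1, a relative of Rpl22, which T cell development needs, was 8.79 ± 0.20 and 8.72 ± 0.13.

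Of the remaining paralogs, Rpl3l, Rpl10l and Rpl39l are known from muscle or testis, and Rps4l is a relative of Rps4x. Rpl3l (5.19 ± 0.18 in sham and 5.18 ± 0.09 in exposed mice) and Rpl39l (5.46 ± 0.17 and 5.58 ± 0.24) lay below the array median of 7.08. Rpl10l was 7.73 ± 0.13 and 7.68 ± 0.14. Rps4l was 7.26 ± 0.16 and 7.41 ± 0.20, with exposed mouse 1 highest at 7.65.

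For 9 pairs of a paralog or copy with its measured parent gene, the ratio of the pair was compared between groups, and the exact permutation p was at least 0.114 (Rpl37rt over Rpl37, log2 difference 0.06). The ratio of Rpl22l1 to Rpl22 differed by -0.19, that of Rpl7l1 to Rpl7 by -0.16 and that of Rpl36al to Rpl36a by -0.14. In exposed mice 2 and 4 these 3 ratios were 0.31 to 0.49 log2 units below their sham means, and in exposed mice 1 and 3 they lay between -0.0381 and 0.28 relative to them. The parents themselves differed by 0.12 (Rpl22), -0.02 (Rpl7) and 0.08 (Rpl36a). Rpl3 (12.11 ± 0.05 in sham and 12.17 ± 0.04 in exposed mice), Rpl32 (11.06 ± 0.09 and 11.15 ± 0.16), Rpl37 (11.46 ± 0.01 and 11.50 ± 0.14), Rpl39 (10.79 ± 0.12 and 10.88 ± 0.16) and Rps23 (12.71 ± 0.06 and 12.79 ± 0.03) overlapped between groups.

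The 4 copies all had higher exposed means, with differences from 0.08 (Rpl32l) through 0.10 (Rpl37rt) and 0.12 (Rps27rt) to 0.23 (Rps23rg1). Without exposed mice 2 and 4 the difference was -0.0424 for Rpl32l and -0.0136 for Rps27rt. Rps23rg1, a member by its name alone, had the smallest p of all members. Its log2 values were 6.19, 6.58, 6.29 and 6.58 in sham and 6.60, 6.91, 6.57 and 6.49 in exposed mice, and exposed mouse 4 lay inside the sham range (difference 0.23 ± 0.13, SE, limma adjusted p = 0.838). Probes for near-identical copies may also bind the parent message, so the values of copies and paralogs are uncertain to that extent. Rps19bp1 was 7.69 ± 0.10 in sham and 7.60 ± 0.09 in exposed mice.

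The spread between single exposed mice was wide beside the group difference. Relative to the sham mean, the mean of the 55 core genes was 0.00645, 0.0712, -0.00837 and -0.0693 in sham mice 1 to 4, and -0.0827, 0.112, 0.110 and 0.106 in exposed mice 1 to 4. Exposed mice 2, 3 and 4 thus lay close together above all sham mice, while exposed mouse 1 lay below all of them. Exposed mouse 1 had the lowest value of all 8 mice for 28 of 55 core genes, where it did so for 13.8% of all genes, and sham mouse 4 for 20 of 55 (9.71% of all genes). Exposed mice 2, 3 and 4 had the highest value of all 8 mice for 18, 12 and 16 of the 55 core genes. Over all genes they did so for 15.2%, 9.78% and 21.3%. Exposed mouse 1 was highest for 1 core gene, and for 12.4% of all genes. Rps14, named after its values were seen, likewise had exposed mouse 1 below all sham mice and the other exposed mice above them. Its values were 10.83 to 10.90 in sham mice, 10.51 in exposed mouse 1 and 10.999 to 11.17 in the other exposed mice. Its difference was 0.06 over all mice, and 0.20 without exposed mouse 1 (limma adjusted p = 0.434).

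**Figure D3:**
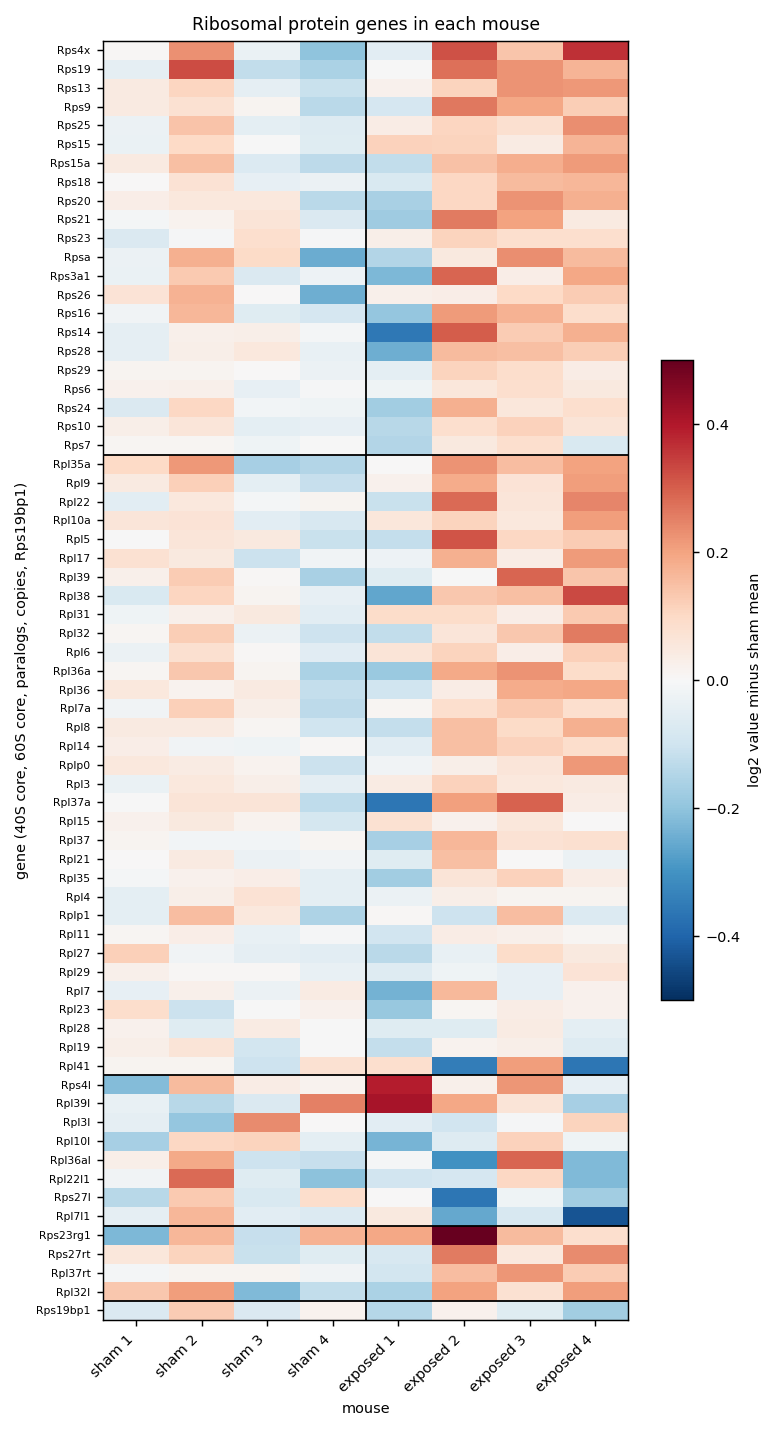
Log2 value minus the sham mean for each member (rows, grouped as 40S core, 60S core, paralogs, copies and Rps19bp1) in each of the 8 mice (columns). Core genes are mostly blue in exposed mouse 1 and sham mouse 4 and mostly red in exposed mice 2, 3 and 4, and Rpl41 with several paralogs is blue in exposed mice 2 and 4.

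Both subunits followed this order. The 40S mean relative to sham was -0.0972, 0.156, 0.136 and 0.135 in exposed mice 1 to 4, and the 60S mean was -0.0731, 0.0832, 0.0921 and 0.0861. In sham mice 1 to 4 it was -0.00519, 0.0994, -0.0102 and -0.0839 for the 40S subunit, and 0.0142, 0.0524, -0.00713 and -0.0595 for the 60S subunit. The paralog mean had another order, at 0.0588, -0.118, 0.0857 and -0.145 in exposed mice 1 to 4.

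The wider machinery of translation did not lean one way. Translation factors and other proteins whose messages are known for a TOP tract had higher exposed means in 11 of 14 genes (median difference 0.0643, 0 at an unadjusted p under 0.05). Of the 8 with an entry in the promoter table, 1 began with a pyrimidine run at an annotated start. Eif3e, a subunit of initiation factor 3, differed by 0.23 and Eif4b, a cofactor of the helicase eIF4A, by 0.19. Eif4b stood at 11.30 and 11.33 in exposed mice 2 and 4 and at 10.84 to 11.005 in the other 6 mice. Without exposed mice 2 and 4 the list had higher means in 3 of 14 genes (median -0.0119). Fau, which encodes the 40S protein eS30 fused to a ubiquitin-like protein and falls outside the symbol rule, was 10.52 in both groups.

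Other initiation factors had lower exposed means in 22 of 25 genes (median -0.141), and 1 of them reached an unadjusted p under 0.05, 4.00% of the list against 2.50% of all probe sets in that direction. That gene was Eif3b, a scaffold subunit of initiation factor 3 (-0.29 ± 0.12, SE). Eif5a, the factor that carries hypusine and eases peptide bond formation, was 10.64 and 10.55 in exposed mice 2 and 4 and 11.30 to 11.54 in the other 6. Of 17 genes of mTOR signalling and TOP control, 9 had higher and 8 lower exposed means (median 0.00104). Larp4, an RNA-binding protein of poly(A) tails, lay lower in all 4 exposed mice (9.64 to 9.81) than in any sham mouse (9.85 to 10.08). It was the 1 gene of the 17 to separate the groups, where 1.35% of all probe sets were lower without overlap. Its limma adjusted p was 0.838. Tsc1, a brake on mTOR, differed by 0.22 ± 0.13.

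Genes that assemble ribosomes stood apart from the ribosomal proteins in direction. Of 50 nucleolar assembly genes, 44 had lower exposed means (median -0.191) and 17 reached an unadjusted p under 0.05 as lower, against 2.50% of all probe sets. Urb1, which acts in early 60S assembly, was 7.98 to 8.18 in sham and 7.45 to 7.78 in exposed mice. Nolc1, a nucleolar chaperone of small ribonucleoproteins, was 7.48 to 7.68 and 6.68 to 7.23. The groups did not overlap for either gene, where 1.35% of all probe sets were lower without overlap, and limma's adjusted p was 0.838 for both. This list contains genes that earlier results of these data had shown to be low, so its count is a description. Relative to sham, its mean was -0.0734, -0.228, -0.181 and -0.381 in exposed mice 1 to 4. Exposed mice 2, 3 and 4, with the highest core ribosomal protein means, thus had the lowest means of assembly genes. Other mice did not follow that opposition, since sham mouse 2 was highest of the sham mice in core genes (0.0712) and in assembly genes (0.145). Exposed mouse 1, lowest in core genes, was close to the lowest sham mouse in assembly genes (-0.0728).

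Chaperones and importers of ribosomal proteins had lower exposed means in 15 of 16 genes (median -0.176), with Bccip, an escort of the 60S protein uL14, at -0.33 and Ipo5, an import receptor, at -0.25. Their mean was -0.00178, -0.232, -0.112 and -0.277 in exposed mice 1 to 4. Mitochondrial ribosomal protein genes, which serve the separate ribosome of that organelle, had lower exposed means in 66 of 76 genes (median -0.120). In the remaining 6 mice Mrpl20 ranged from 7.43 to 7.94, and exposed mice 2 and 4 had 7.02 and 6.73, and Mrpl32 differed by -0.36 ± 0.14. Without exposed mice 2 and 4, 33 of these 76 genes had lower means (median 0.00952), and 43 of the 50 nucleolar assembly genes did (median -0.117), of which 40 were lower over all mice too. No gene of any of these lists passed limma's adjustment, and the difference between the lists and the ribosomal proteins was not tested.

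**Figure D4:**
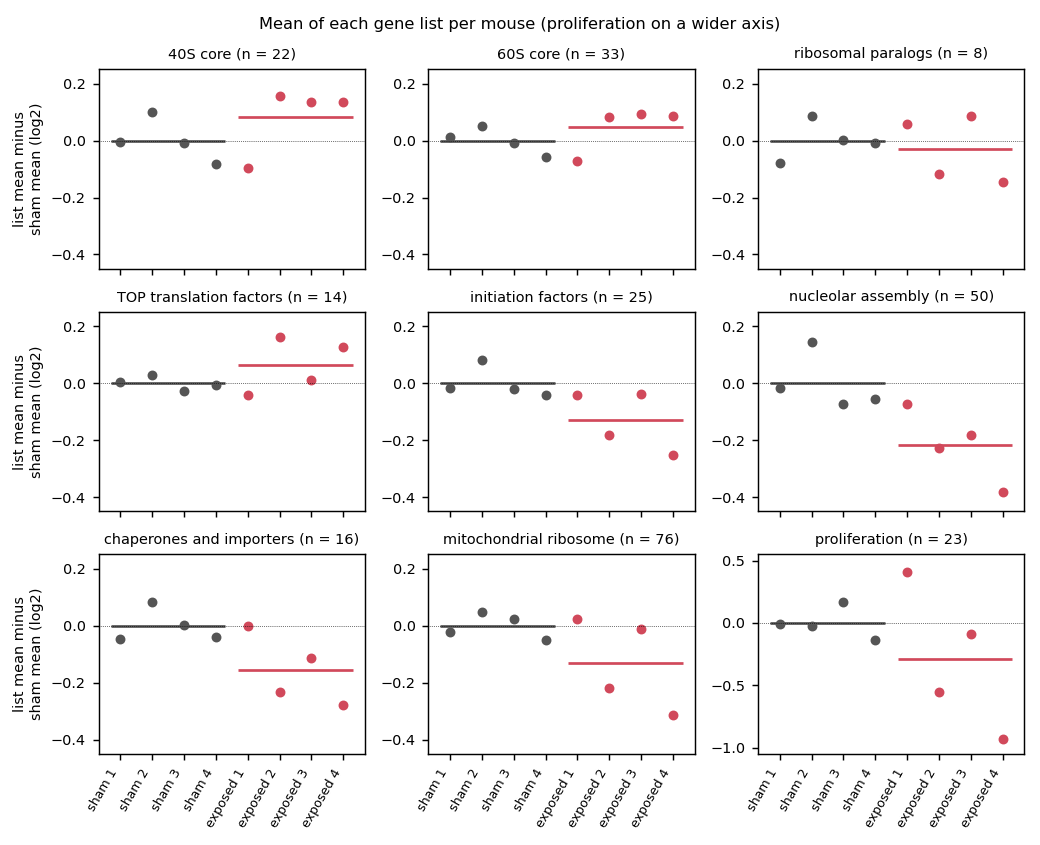
Mean of each gene list in each mouse minus its sham mean (log2), with sham mice in grey, exposed mice in red and a line at each group mean. The proliferation panel has a wider axis. The 40S and 60S means lie above all sham mice in exposed mice 2, 3 and 4 and below them in exposed mouse 1, and the assembly, importer and mitochondrial lists are lowest in exposed mice 2 and 4.

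Proliferation and cell type markers varied between mice too. In bulk tissue fewer cells of a type and less RNA per cell cannot be told apart. The mean of 23 proliferation genes relative to sham was 0.413, -0.551, -0.0846 and -0.932 in exposed mice 1 to 4, with 22 of 23 genes lower in the group mean (Cdc6 by -0.39 and Ccne1 by -0.29). Exposed mouse 1, the highest of them in proliferation genes, was the lowest in core ribosomal proteins. Among sham mice, mouse 4 was lowest in both (-0.134 for proliferation genes and -0.0693 for core genes). The 6 adipocyte markers averaged 6.46 and 6.74 in exposed mice 1 and 2, and 5.12 to 5.61 in the other 6. Their defining marker Adipoq was 7.10 and 6.67 in those mice and 4.23 to 5.26 in the others, and the core ribosomal protein mean was low in the first and high in the second. The part of these cells in the ribosomal protein values was not tested.

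Markers of the uterus were present in every mouse, with Hoxa10 of the stroma at 10.87 to 11.36, Myh11 of the myometrium at 11.19 to 11.85 and Cdh1 of the epithelium at 10.34 to 11.26. Mean differences between groups were -0.207 for 7 myometrial, -0.256 for 6 epithelial, 0.271 for 4 glandular, 0.0518 for 6 stromal and 0.157 for 5 endothelial markers. They were -0.257 for 5 macrophage, -0.179 for 5 granulocyte, -0.00445 for 6 lymphocyte, 0.171 for 2 erythrocyte and 0.0759 for 5 ovary and oviduct markers. Of the 4 glandular markers 2 had a higher and 2 a lower exposed mean, and exposed mouse 4 had a value of 12.04 for Prss29 where sham mice had 6.92 to 7.20. For granulocyte markers the median difference had the other sign (0.00622). At an unadjusted p under 0.05, 2 epithelial markers and 1 granulocyte marker were lower (2.50% of all probe sets) and 1 adipocyte marker was higher (2.91% of all probe sets), and none passed limma's adjustment. Lymphocyte markers were dim throughout, with a list mean of 5.46 to 5.76 in sham and 5.43 to 5.77 in exposed mice.

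Among 19437 genes outside the members, those whose values over the 8 mice were most like the mean of the members were Il4ra (Pearson r 0.986), Igsf8 (0.966), Hgd (0.963), Zfp655 (0.952) and Sv2b (0.947). These were picked as the highest of many values and serve as a description. Il4ra, a subunit of the interleukin 4 receptor, was 8.64, 9.10, 8.72 and 8.54 in sham and 8.48, 9.25, 9.31 and 9.06 in exposed mice, with exposed mouse 1 lowest and exposed mice 2 and 3 highest.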

How the data were processed

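Values for 22206 probe sets on 8 arrays, 1 a mouse, were used on the log2 scale, as deposited by the authors. That scale was inferred from their range (2.75 to 13.64). The software was Partek, per the submitters' processing notes. How background was corrected and probes were summarised was not given in the sources used here. Sorted arrays differed by at most 0.0198, and no further normalization was applied. Arrays set to a common distribution cannot show a change shared by all genes. Symbols came from the platform annotation (19572 probe sets with 1 symbol, 2634 with none), and 0 needed updating against RefSeq of GRCm38.p6. The highest-mean probe set of each gene was kept.

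Differences, exposed minus sham, were fitted over all probe sets with limma 3.58.1 in R 4.3.3 without covariates, with Benjamini-Hochberg adjustment and a threshold of 0.05, and the code was tested on simulated data. Single genes were also compared by exact two-sided permutation over 70 assignments. The labels call the 4 mice of a group biological replicates. Lists are described by counts and medians, without a set test. The members and lists were chosen with earlier results of these data known, and the class of copies once the symbols had been read.

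Named members were the 6 higher and 6 lower of smallest p, the 5 of largest SD over the 8 mice, 10 genes given by name (Rplp2 and Rpl13a not analysed here), paralogs and copies with their parents, and the 2 genes of smallest p of each list of related genes. Alternatives were other normalizations, filters on dim probe sets, other variance estimates, weighted arrays, a block for the replicate number, averaged probe sets, and leaving out mice.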

Additional observations from a re-analysis of the deposited data

Results flagged for a closer look

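In 5 of 94 groups of 4 values examined, a single mouse had a gap to the remaining 3 beyond Dixon's critical value, and chance alone does so in about 1 group of 20. Exposed mouse 1 stood apart for the mean of the core ribosomal protein genes (11.24, others 11.43 to 11.43), for the 40S mean (11.08, others 11.31 to 11.33) and for the 60S mean (11.34, others 11.50 to 11.51). These means share genes and are not separate results. Exposed mouse 2 stood apart for Rpl3 (12.22, others 12.15 to 12.16), and sham mouse 2 for Rpl7l1 (9.66, others 9.43 to 9.45).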

How the results depend on the processing

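The median difference of the core genes stayed above 0 under every alternative run, but its size rested on single mice. Other variance estimates, the replicate block, averaged probe sets and the filters leave a core gene's difference as it is, so they could not change this. The arrays already shared a distribution before the other normalizations. Only array weights (median 0.0721) and leaving out mice moved the median. With 1 mouse left out, the median ran from 0.0408 to 0.117 for core genes, 0.0520 to 0.145 for 40S genes, 0.0337 to 0.0997 for 60S genes, -0.120 to -0.00663 for paralogs, 0.0253 to 0.0958 for TOP factors, -0.177 to -0.0739 for mitochondrial ribosomal proteins and -0.519 to -0.0855 for proliferation genes. Leaving out 1 mouse at a time, the number of members with a lower exposed mean ran from 9 to 21, the number at an unadjusted p under 0.05 from 0 to 3 (Rps4x, Rpl7l1 and Rps14 without exposed mouse 1, and Rps19 without sham mouse 2), probe sets at an unadjusted p under 0.05 from 726 to 2545, and probe sets at an adjusted p under 0.05 from 0 to 1 (Cldn10, without exposed mouse 1). The median changed sign for stromal (-0.0235 to 0.119), granulocyte (-0.111 to 0.0322), glandular (-0.0291 to 0.359), ovary and oviduct (-0.0456 to 0.145) and lymphocyte markers (-0.0992 to 0.0468) and for mTOR genes (-0.0343 to 0.0285). Of all 68 members, 20 changed sign without at least 1 mouse, 8 of them without exposed mouse 1. Among the members named by the rule, those that did had ranges of -0.107 to 0.00878 (Rpl10l), -0.0198 to 0.0240 (Rpl11), -0.142 to 0.0206 (Rpl22l1), -0.176 to 0.0217 (Rpl36al), -0.00534 to 0.106 (Rpl37), -0.0394 to 0.180 (Rpl37a), -0.0753 to 0.068 (Rpl3l), -0.0854 to 0.0477 (Rpl7), -0.0548 to 0.0479 (Rplp1) and -0.00867 to 0.147 (Rpsa).

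Without exposed mice 2 and 4, 30 members had a lower exposed mean and 1 reached an unadjusted p under 0.05 (Rps4l). The median was then 0.00472 for 60S genes, 0.00952 for mitochondrial ribosomal proteins, -0.0119 for TOP factors, -0.0509 for initiation factors, -0.0717 for chaperones and importers, 0.180 for proliferation genes, -0.156 for granulocyte markers and -0.0889 for ovary and oviduct markers. Over all members, 17 turned to a lower and 4 to a higher exposed mean. Among the members named by the rule the sign turned for Rpl22 (-0.0249), Rpl22l1 (0.00387), Rpl32l (-0.0424), Rpl36al (0.144), Rpl37 (-0.0478), Rpl37a (-0.0325), Rpl38 (-0.0547), Rpl41 (0.147), Rpl5 (-0.0068), Rplp1 (0.0792) and Rps27rt (-0.0136), and with array weights for Rplp1 (0.0171). Without variance moderation 2 members (Rpl31 and Rps15) had an unadjusted p under 0.05. Keeping probe sets above the 50th percentile left 796 at that p, from fewer tested, and the granulocyte median was -0.872, or -0.12 above the 25th percentile, where fewer markers remained. Apart from these, the cause of the shifts was not tested.

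The replicate numbers showed no pairing of the mice. After the group mean of each probe set was subtracted, same-numbered mice correlated at 0.08, -0.238, 0.085 and 0.075. With the replicate number as a block, 1274 probe sets had an unadjusted p under 0.05 and 0 an adjusted one, and 51 members were higher and 17 lower.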
